A study of Mus musculus with 20 samples.

Results

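Keratins were followed as a gene family in RNA-seq libraries from the inguinal fat of mice (iWAT), a white, subcutaneous depot of the groin. The members were the protein-coding genes of the NCBIM37 annotation whose symbol is Krt followed by a number, with the keratin-associated protein (Krtap) genes left out. That rule gave 51 genes of 36611 with a transcript in the deposited table, 27 in a cluster on chromosome 11 (99094075 to 100131185) and 24 in a cluster on chromosome 15 (101177875 to 101862457), both in the mm9 build. By type, 28 were type I (acidic) and 23 type II (basic) keratins, Krt18 being the type I gene that lies in the chromosome 15 cluster. There were 20 libraries, 5 in each of 4 groups. Each is read here as 1 mouse, although the labels number samples and do not say so, and p-values measure the spread between these samples.

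All mice were 6-month-old C57BL/6 females that carried 2 floxed Tmem120a alleles (Tmem120a fl/fl), and those of 2 groups also carried Adipoq-Cre, a recombinase under the adiponectin promoter that acts in adipocytes. The mice without Cre, labelled wild type and being floxed littermates per the study's methods, are called controls here and those with it knockouts (Ad-Tmem120a-/-). Each genotype was fed for 15 weeks on a diet low in fat (LFD, with 10.5% fat) or high in fat (HFD, with 58% fat), giving control LFD (replicates 1 to 5), knockout LFD (6 to 10), control HFD (11 to 15) and knockout HFD (17 to 21). Levels are in TPM, a unit scaled to transcript length and library size that allows genes to be compared, and tests were run on estimated read counts.

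Keratins are the intermediate filament proteins of epithelial cells. They form obligate pairs of a type I and a type II chain, and the pair changes with the epithelium. Krt8 and Krt18, with Krt7 and Krt19, belong to simple and glandular epithelia such as the luminal cells of the mammary gland. Krt5 and Krt14 belong to basal and myoepithelial cells, Krt1 and Krt10 to the differentiated epidermis, Krt25 to Krt28 and Krt71 to Krt74 to the inner root sheath of the hair follicle, and Krt31 to Krt40 and Krt81 to Krt86 to the hair shaft. In female mice the mammary ducts run inside the inguinal pad, under the skin. In a bulk sample such as these, fewer cells of a type and less RNA per cell cannot be told apart.

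Libraries held 54605101 to 92387737 estimated counts. The adipocyte markers were high in all 20 libraries, with Adiponectin (Adipoq) at 638 to 1502 TPM. Tmem120a averaged 85.4 TPM ± 28.4 (SD, n = 5) in control LFD against 41.5 ± 21.9 in knockout LFD, and 119 ± 44.5 in control HFD against 51.6 ± 26.7 in knockout HFD, with overlapping groups on both diets and edgeR adjusted p of 0.93 and 0.17. Epithelial genes outside the keratin family were found in every library, Epcam at 15.8 to 67.5 TPM and Trp63, the transcription factor of basal epithelial cells, at 2.78 to 10.5 TPM. Control LFD 1 stood apart by its lymphocyte genes, whose 8 members summed to 4.61 TPM against 17.4 to 158 in the other libraries.

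**Figure D1:**
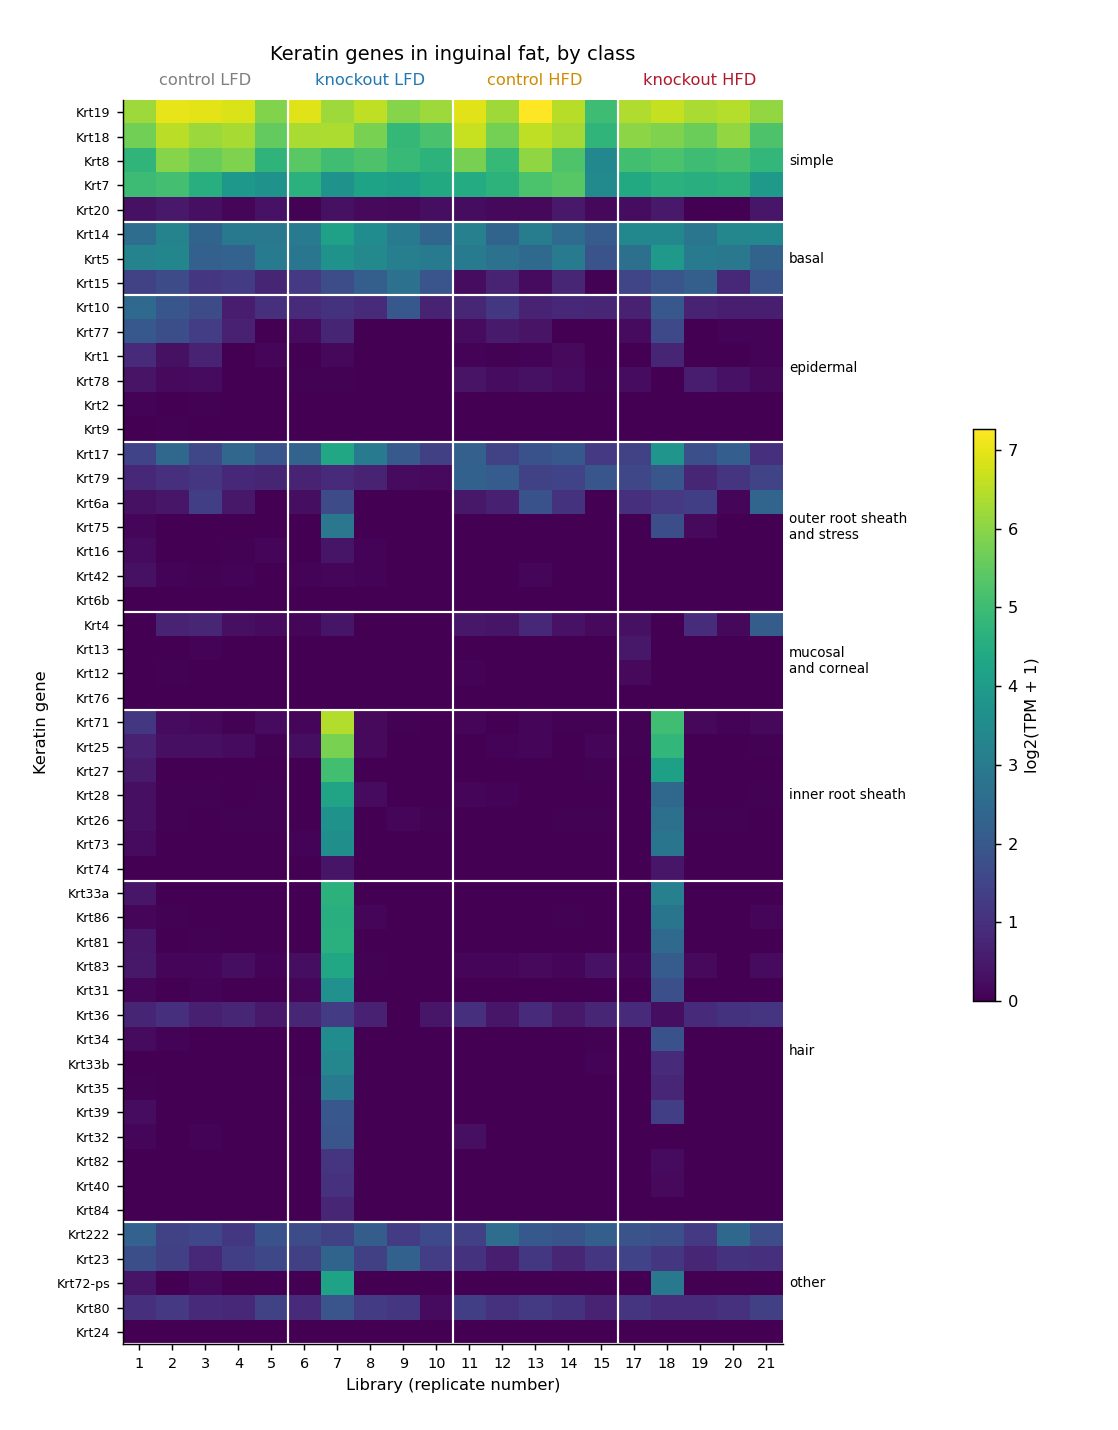
Level of each of the 51 keratin genes (rows, by class) in each of the 20 libraries (columns, by group, numbered by replicate), as log2(TPM + 1). The simple keratins fill the top rows in every library, while the inner root sheath and hair rows are bright in knockout LFD 7 and knockout HFD 18.

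The family ranged from genes read in all libraries to genes that were not detected. Of the 51 keratins, 12 had more than 3 estimated counts in all 20 libraries and 3 (Krt24, Krt6b and Krt76) in none. Krt76 was listed at 0 in all of them, and a count of 0 allows up to 3 counts in a library. A mean of at least 0.5 TPM was reached by 30 keratins. The members were read by class, with 5 simple, 3 basal, 6 epidermal, 7 outer root sheath and stress, 4 mucosal and corneal, 7 inner root sheath and 14 hair keratins, and 5 others.

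Simple keratins made up most of the keratin RNA. Their share of the summed keratin TPM had a median of 87.4%, and was between 80.2% and 92.6% in 18 libraries, but 53.8% in knockout HFD 18 and 31.1% in knockout LFD 7. The summed level of the class was 76.5 to 348 TPM. Krt19 had the highest mean over the 20 libraries at 89.8 TPM ± 29.1 (SD), followed by Krt18 at 61.8 ± 21.8, Krt8 at 36.8 ± 13.96 and Krt7 at 22.1 ± 8.31. The order held between mice in most pairs, since Krt19 was above Krt18 in 19 of 20 libraries, Krt18 above Krt8 in 19 and Krt8 above Krt7 in 17. Krt20, the remaining simple keratin, did not exceed 0.412 TPM.

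The place of Krt19 at the top rests on how its reads were divided among transcripts. A processed transcript of 823 bases carried 72.2% of the Krt19 TPM and 55.1% of its counts, and on the protein-coding transcript alone Krt19 averaged 24.9 TPM ± 8.35, below Krt18 and Krt8. Likewise 69.8% of the Krt7 TPM fell on a coding transcript of only 642 bases that held 22.6% of the Krt7 counts. Krt8 and Krt18 have 1 listed transcript each, so their levels carry no such division.

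The simple keratins varied widely between mice of 1 group. In control HFD, Krt8 measured 53.8, 27.9, 65.3, 37.6 and 9.58 TPM in replicates 11 to 15, a range that covers the values of all 15 other mice. Krt18 measured 99.5, 53.1, 93.8, 76.3 and 25.8 TPM in the same mice. Control HFD 15 was the lowest of the 20 libraries for Krt7, Krt8, Krt18 and Krt19, and was also the lowest for Epcam. In knockout HFD the spread was narrower, with Krt8 at 32.2, 36.0, 31.4, 34.3 and 27.0 TPM.

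Basal keratins were next in level. Krt14 averaged 7.39 TPM ± 3.12 and Krt5, its type II partner, 6.94 ± 2.84, and these neighbours did not differ beyond their spread, Krt14 being the higher in 11 of 20 libraries. Krt15, which is typical of resting basal cells and of the hair follicle bulge, was lower at 1.81 ± 1.41 TPM and varied the most of the 3, from 0.0275 to 5.49 TPM. The class summed to 5.98 to 31.5 TPM.

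Beyond these, Krt17 (outer root sheath and stressed epithelium) was at 1.01 to 19.1 TPM, and Krt222, Krt23 and Krt80 were present in every library at 1.24 to 5.04, 0.536 to 4.02 and 0.164 to 2.81 TPM. Krt79, a keratin of the sebaceous gland duct and upper hair follicle, was at 0.139 to 3.77 TPM. Krt10 was at 0.464 to 4.60 TPM in all libraries, while Krt77, a further keratin of suprabasal epidermis and sweat gland ducts, reached 2.97 TPM and was at 0 in 5. Krt6a, which is induced in wounded epithelium, ranged from 0 to 4.19 TPM with its maximum in knockout HFD 21. The same library held the maximum of Krt4 (3.39 TPM), the most abundant mucosal keratin, against 0 to 0.885 TPM in the other 19.

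**Figure D2:**
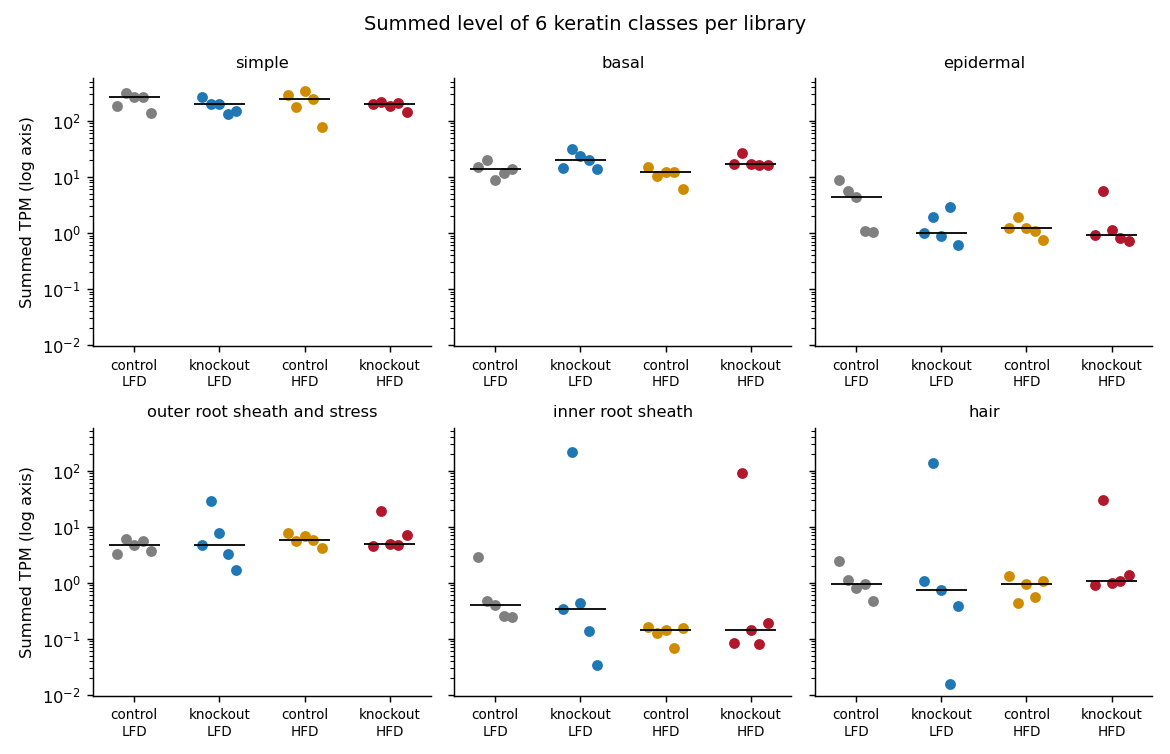
Summed TPM of 6 keratin classes in each library (points, log axis) by group, with the group median as a line. Simple keratins lie between 76.5 and 348 TPM in all groups, and the inner root sheath and hair panels each hold 2 points far above the rest, knockout LFD 7 and knockout HFD 18.

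Promoters of 7 keratins are given to show the sequences of the genes on which the following results turn, 4 found in every library (Krt8, Krt18, Krt5 and Krt14), 1 that followed diet (Krt79) and 2 found mainly in a pair of libraries (Krt71 and Krt25). Each line is the 120 bases before the start of the gene, read 5′ to 3′ on the strand of the gene, from RefSeq on GRCm38.p6, which is not the build of the expression data. Capitals mark any match on either strand to 4 motifs, each searched by its letters. TATAAA stands for the box near the start of many tissue-specific genes, and CCAAT for the element bound by nuclear factor Y. GGGCGG stands for the sites bound by Sp family factors, and CTTTGA for the core of the Lef1 site. No matches overlapped in the lines shown.
Krt8: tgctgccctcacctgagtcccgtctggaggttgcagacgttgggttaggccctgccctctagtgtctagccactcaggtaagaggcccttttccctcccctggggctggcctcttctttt
Krt18: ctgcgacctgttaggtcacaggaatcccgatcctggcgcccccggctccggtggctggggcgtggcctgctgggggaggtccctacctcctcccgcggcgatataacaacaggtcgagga
Krt5: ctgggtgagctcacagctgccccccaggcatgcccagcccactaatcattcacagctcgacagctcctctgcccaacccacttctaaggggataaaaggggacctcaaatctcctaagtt
Krt14: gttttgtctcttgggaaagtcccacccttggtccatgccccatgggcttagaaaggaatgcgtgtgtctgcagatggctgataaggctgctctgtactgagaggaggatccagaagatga
Krt79: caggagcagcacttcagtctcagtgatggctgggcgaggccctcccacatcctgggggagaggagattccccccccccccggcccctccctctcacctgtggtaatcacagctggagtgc
Krt71: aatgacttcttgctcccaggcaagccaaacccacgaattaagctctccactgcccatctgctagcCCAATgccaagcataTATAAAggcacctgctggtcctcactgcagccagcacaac
Krt25: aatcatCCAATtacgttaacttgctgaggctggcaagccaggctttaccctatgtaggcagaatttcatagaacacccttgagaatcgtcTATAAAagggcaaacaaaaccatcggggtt
The Krt8 window is at chr15:102004343-102004462 (minus strand), Krt18 at chr15:102028096-102028215 (plus), Krt5 at chr15:101712906-101713025 (minus), Krt14 at chr11:100206031-100206150 (minus), Krt79 at chr15:101940325-101940444 (minus), Krt71 at chr15:101743098-101743217 (minus) and Krt25 at chr11:99322952-99323071 (minus). Krt71 and Krt25 each held TATAAA and CCAAT, and the other 5 windows held none of the 4 motifs. Of the 34 keratins with a promoter entry, 15 held TATAAA, a motif found in 6.76% of 27025 promoters, and 6 of those 15 were inner root sheath keratins (Krt25, Krt26, Krt27, Krt28, Krt71 and Krt73). CCAAT was in 7 of 34 against 22.1% of all promoters, GGGCGG in 2 against 26.9% and CTTTGA in 2 against 6.18%. A match describes the letters of the window and nothing about binding.

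Hair and inner root sheath keratins were found almost wholly in 2 of the 20 mice, both knockouts, 1 on each diet. Knockout LFD 7 held 214 TPM of inner root sheath keratins and 138 TPM of hair keratins, and knockout HFD 18 held 91.8 and 30.5 TPM. In the other 18 libraries the sums were 0.0334 to 2.91 TPM and 0.0158 to 2.42 TPM. These 2 libraries together carried over 90% of the TPM of 21 keratins, namely all 7 of the inner root sheath, 12 of 14 of the hair class, Krt75 of the outer root sheath and companion layer, and Krt72-ps, a gene that the annotation lists as protein coding despite its name.

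The leading member was Krt71, a type II keratin of the inner root sheath, at 84.8 TPM in knockout LFD 7 and 32.1 TPM in knockout HFD 18. Its type I partners followed, Krt25 at 54.6 and 27.0 TPM and Krt27 at 32.7 and 16.5 TPM. Krt28 measured 17.9 and 4.49 TPM, Krt26 12.3 and 5.39 TPM, and Krt73 11.2 and 6.01 TPM. The highest value of these 6 genes in any other library was that of Krt71 in control LFD 1, 1.27 TPM. Krt72-ps was at 17.4 and 6.61 TPM in the same pair of mice, and Krt75 at 6.42 and 2.33 TPM.

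Among hair shaft keratins the order was similar. Krt33a measured 24.2 TPM in knockout LFD 7 and 8.04 TPM in knockout HFD 18, Krt81 23.2 and 4.61, Krt86 22.3 and 6.02, and Krt83 18.99 and 3.30. Krt31 was at 11.8 and 2.45 TPM, Krt34 at 10.6 and 2.55, and Krt33b at 9.24 and 0.811. The excess of the first library over the second was 4.51-fold for the summed hair keratins against 2.33-fold for the inner root sheath keratins, a comparison of 2 libraries with no replicate check.

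Of the 21 hair and inner root sheath keratins, 20 were highest in knockout LFD 7 and 1 (Krt74) in knockout HFD 18, and for 18 of them both libraries were above all other 18. The other 3 were all hair keratins. Krt32 and Krt84 were at 0 in knockout HFD 18 and at 2.80 and 0.720 TPM in knockout LFD 7. Krt36 was at 0 to 1.39 TPM, in 19 of 20 libraries with more than 3 counts, and was lower in knockout HFD 18 (0.198 TPM) than in all but 1 of the other mice. Of the other 18 libraries, control LFD 1 was the highest for 14 of the 21 genes. Reads of several hair keratins can also fall on a close relative, since 50.9% of the 31-base words of the Krt81 coding transcripts, 49.9% of those of Krt86 and 42.0% of those of Krt34 occur in another gene, so values within these groups are uncertain. For Krt6a and Krt6b the shares were 53.7% and 52.3%.

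Most genes of the hair follicle outside the family were also highest in these 2 libraries. Of the 11 hair shaft genes that are not keratins, 8 were above all other 18 libraries in both, the exceptions being Hoxc13 and Foxn1, which were at 0 in knockout HFD 18, and Lef1, which was highest in control HFD 15. The 51 Krtap genes, whose products cross-link hair keratins, summed to 894 TPM in knockout LFD 7 and 529 TPM in knockout HFD 18, to 7.91 TPM in control LFD 1 and to 0 to 0.676 TPM elsewhere. Trichohyalin (Tchh), a protein of the inner root sheath, was at 54.0 and 22.5 TPM against at most 0.966 TPM elsewhere. The summed epithelial list was 165 and 187 TPM in the 2 libraries against 53.2 to 214 in the others, and Krt17 had its 2 highest values there, 19.1 and 12.8 TPM. The part of these follicle genes in the keratin values was not tested.

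Epidermal keratins were highest in another set of mice. The class summed to 8.74, 5.67 and 4.44 TPM in control LFD 1, 2 and 3 and to 5.69 TPM in knockout HFD 18, against 0.620 to 2.97 TPM in the other 16. In these 4 mice Krt10 and Krt77 led the class, while Krt2 and Krt9 were at most 0.0528 TPM in any library. The list of 17 cornified epidermis genes did not follow these 4 mice as a whole. Its sum was 37.0, 17.3, 27.5 and 43.9 TPM in them, against 65.0 TPM in control HFD 13, 57.1 TPM in knockout LFD 7 and 3.84 to 28.6 TPM in the remaining libraries. Of the 17 genes, 3 (Lor, Flg2 and Lce1a1) were higher in all 4 of these mice than in the other 16, while Ivl and Sprr1a peaked in control HFD 13, 6 genes peaked in knockout LFD 7 and 1 was at 0 throughout. In knockout LFD 7, the mouse with the most hair keratin, the epidermal class summed to 1.91 TPM.

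Turning to genotype, no keratin passed the test on either diet. The comparison asks which genes differ in fat when Tmem120a, a nuclear envelope transmembrane protein, is deleted in adipocytes. On HFD 24 keratins passed the filter of a mean of 0.5 TPM and 0 were called at an adjusted p under 0.1 by edgeR's quasi-likelihood test, where 0.00657% of all genes tested were called. At an unadjusted p under 0.05 there were 10 against 4.66% of all genes, but 8 of the 10 were keratins carried by knockout HFD 18, and without that library 16 keratins were tested and 3 had such a p. On LFD 31 were tested and 0 called against 0.00636% of all genes, with 15 at an unadjusted p under 0.05 against 5.11%. All 15 were carried by knockout LFD 7, and without it 15 keratins were tested, with 2 at such a p. DESeq2 called 1 of 24 keratins on HFD (Krt15), against 0.657% of all genes, and 0 of 31 on LFD, against 0.108%.

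Krt15 was the keratin that separated the genotypes on HFD. Control HFD replicates 11 to 15 measured 0.173, 0.615, 0.161, 0.702 and 0.0275 TPM. Knockout HFD replicates 17 to 21 measured 1.87, 2.79, 3.62, 0.775 and 2.75 TPM. The groups did not overlap, though narrowly, the highest control having 83 estimated counts and the lowest knockout 83 as well. Krt15 was the only one of the 24 tested keratins without overlap in TPM, against 0.69% of all genes tested. The exact permutation test of log2(TPM + 1) gave p = 0.00794 (two-sided), the smallest p that 5 mice against 5 allow, in a family of 72 such tests over 18 keratins and 4 comparisons, of which 10 gave an unadjusted p under 0.05. In the fit across all genes the log2 fold change was 2.53 ± 0.77 (SE) with an adjusted p of 0.74 by edgeR, and the adjusted p was 0.072 by DESeq2. Genes of skeletal muscle fibres had positive fold changes in the same comparison in 10 of 10 cases. Of these 0 were called, against 0.00657% of all genes, and 10 had an unadjusted p under 0.05 by edgeR, against 4.66%. Their summed level overlapped, at 7.24 to 54.7 TPM in control HFD against 40.2 to 1496 TPM in knockout HFD. Their part in the Krt15 values was not tested.

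On LFD the Krt15 values overlapped, as did those of all 31 tested keratins, where 1.4% of all genes did not. Control LFD 1 to 5 measured 1.72, 2.21, 1.21, 1.46 and 0.690 TPM and knockout LFD 6 to 10 measured 1.31, 2.30, 3.59, 5.49 and 2.79 TPM. The log2 fold change was 0.69 ± 0.36 (adjusted p = 0.93 by edgeR, exact permutation p = 0.0476). A transcript with a retained intron, of 689 bases, held 30.2% of the Krt15 TPM over all libraries. On the coding transcripts alone the means were 1.25 and 1.83 TPM on LFD, with exact p = 0.159, and 0.330 and 1.66 TPM on HFD.

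The other basal keratins had positive and the simple keratins negative log2 fold changes on both diets, none of which passed the test. On HFD the values were 0.68 ± 0.25 for Krt14 and 0.47 ± 0.35 for Krt5, and -0.32 ± 0.31 for Krt18, -0.30 ± 0.30 for Krt7, -0.21 ± 0.36 for Krt8 and -0.16 ± 0.29 for Krt19. The signs of Krt8 and Krt19 turned positive when control HFD 13 was left out, and that of Krt19 also with limma on TPM. On LFD the simple keratins were between -0.36 (Krt7) and -0.51 (Krt8), and Krt14 and Krt5 at 0.37 and 0.35. The Krt5 rise on HFD leaned on knockout HFD 18, at 14.17 TPM. The other knockout HFD libraries held 4.01 to 7.04 TPM, within the 2.60 to 7.17 TPM of control HFD. Krt14 in knockout HFD was at 9.34 to 9.57 TPM in all but replicate 19 (6.17 TPM). Among LFD mice both genes were highest in knockout LFD 7 and 8. Krt14 measured 16.97 and 10.5 TPM there, and Krt5 12.2 and 9.72 TPM. Control LFD reached 8.51 and 8.99 TPM. Over the class the median log2 fold change was -0.25 for 4 simple and 0.68 for 3 basal keratins on HFD, and -0.39 and 0.37 on LFD, beside medians of 0.01 and -0.02 over all genes tested.

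Set against each other within a library, the summed basal keratins were 3.53% to 7.82% of the simple ones in control HFD and 7.83% to 12.3% in knockout HFD. In control LFD the range was 3.36% to 9.91% and in knockout LFD 5.50% to 15.9%. The ratio is a description chosen after the values were seen, and no test was made of it. Trp63 had a log2 fold change of 0.83 and Epcam one of 0.74 on HFD, with edgeR adjusted p of 0.74 and 0.999. No member of the epithelial list (14 genes tested), the mammary luminal list (10) or the myoepithelial list (8) was called on HFD, against 0.00657% of all genes. On LFD none of 14, 11 and 8 was called, against 0.00636%. Log2 fold changes on HFD were positive for 13, 7 and 5 of these genes. An unadjusted p under 0.05 by edgeR was found for 4, 2 and 2, against 4.66% of all genes. On LFD 11, 5 and 4 were positive, and 0, 2 and 0 had such a p, against 5.11%.

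The keratins with the lowest p in the genotype comparisons were Krt71 on HFD (log2 fold change 7.27 ± 2.09, adjusted p = 0.64 by edgeR) and Krt86 on LFD (7.92 ± 2.53, adjusted p = 0.93). Both values come from 1 knockout library each. For Krt71, knockout HFD 17 to 21 measured 0.0232, 32.1, 0.114, 0.0532 and 0.104 TPM against 0 to 0.0695 TPM in control HFD. For Krt86, knockout LFD 7 measured 22.3 TPM and the other 4 knockout LFD libraries 0 to 0.0949 TPM.

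**Figure D3:**
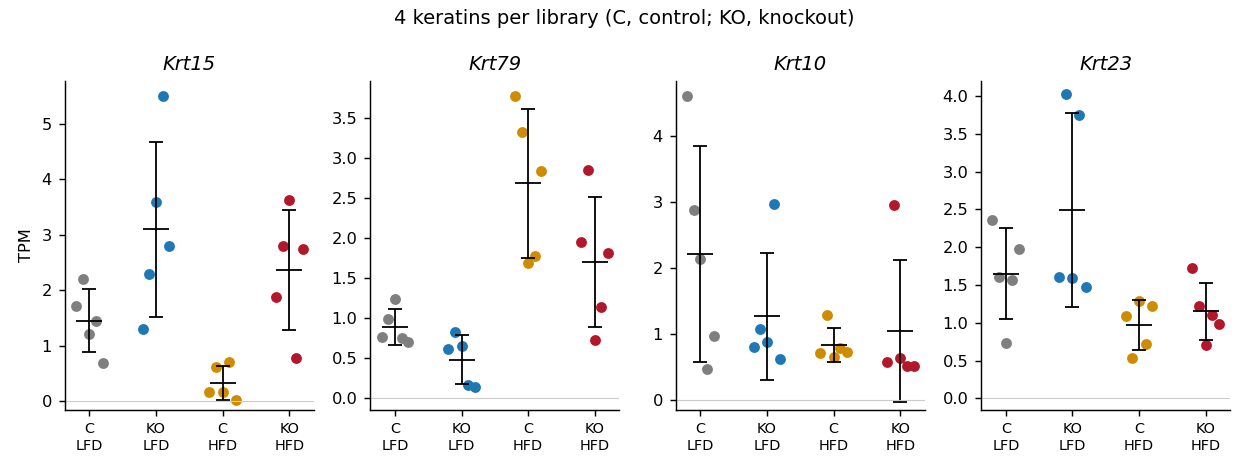
TPM of Krt15, Krt79, Krt10 and Krt23 in each library (points) with the group mean and SD (bars), C for control and KO for knockout. The Krt15 points of control HFD lie below all 5 of knockout HFD, and the Krt79 points of control HFD lie above all 5 of control LFD.

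Krt79 was called between diets in both genotypes. In control mice it rose on HFD, from a mean of 0.885 TPM ± 0.226 (SD, n = 5) to 2.68 ± 0.929, a log2 fold change of 1.38 ± 0.30 with an adjusted p of 0.024 by edgeR. Control LFD measured 0.761, 0.984, 1.24, 0.744 and 0.699 TPM in replicates 1 to 5. Control HFD measured 3.77, 3.32, 1.68, 1.77 and 2.83 TPM in replicates 11 to 15. The groups did not overlap, which held for 1 of 16 tested keratins and for 9.78% of all genes tested, and the exact permutation p was 0.00794. The call held with each of the 10 libraries left out in turn, at adjusted p of 0.024 to 0.067 by edgeR.

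In knockout mice Krt79 rose as well, with a log2 fold change of 1.82 ± 0.55 and an adjusted p of 0.081 by edgeR. Knockout LFD measured 0.609, 0.822, 0.646, 0.163 and 0.139 TPM in replicates 6 to 10, and knockout HFD 1.95, 2.84, 0.723, 1.14 and 1.81 TPM in replicates 17 to 21. Here the highest LFD value lay above the lowest HFD value, and 0 of 32 tested keratins were free of overlap against 7.95% of all genes. The exact permutation p was 0.0159. The call was less firm than in controls, being kept in 3 of 10 fits with a library left out, at adjusted p of 0.076 to 0.15 by edgeR, and it was lost with offsets for transcript length (adjusted p = 0.12 by edgeR).

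Knockouts were lower than controls in mean Krt79 on both diets, with log2 fold changes of -1.03 ± 0.49 on LFD and -0.61 ± 0.37 on HFD that did not pass the test (adjusted p = 0.93 and 0.999 by edgeR). The difference between the 2 diet effects was 0.40 ± 0.62 (adjusted p = 0.9999 by edgeR). Of the other members of its class that could be tested, Krt17 had log2 fold changes with diet of -0.52 ± 0.34 in controls and -0.70 ± 0.72 in knockouts, and Krt6a of 0.60 ± 1.22 and 1.82 ± 1.56. Krt75, tested in knockouts, was at -1.31 ± 2.18, and none of these passed the test.

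In all, 2 of 16 keratins tested were called between diets in controls, against 9.32% of all genes tested, and 1 of 32 in knockouts, against 9.4%. Neither share is far above that of all genes, and the one in knockouts is below it. DESeq2 called 4 of 16 against 14.4% and 2 of 32 against 14.3%. At an unadjusted p under 0.05 there were 5 keratins in controls against 20.7% of all genes and 2 in knockouts against 19.8%. Besides Krt79 the called keratin was Krt10 in controls.

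Krt10 fell on HFD in controls, from a mean of 2.21 TPM ± 1.64 to 0.830 ± 0.259, a log2 fold change of -1.55 ± 0.46 with an adjusted p of 0.077 by edgeR. Control LFD 1 to 5 measured 4.60, 2.88, 2.14, 0.464 and 0.969 TPM and control HFD 11 to 15 measured 0.709, 1.28, 0.645, 0.791 and 0.721 TPM. Control LFD 1, 2 and 3 were high and the other 2 lay within or near the HFD values. The same 3 had the highest summed epidermal keratins of the control mice, a sum that includes Krt10 itself. The cornified epidermis list summed to 8.14 to 37.0 TPM in control LFD and 3.84 to 65.0 TPM in control HFD. The part of other epidermal genes in the Krt10 values was not tested. The exact permutation p was 0.119. The call was kept in 2 of 10 fits with a library left out, at adjusted p of 0.028 to 0.16 by edgeR, the fold change without control LFD 1 being -1.12, and it was lost with length offsets (adjusted p = 0.11). In knockouts Krt10 measured 0.805, 1.08, 0.875, 2.97 and 0.617 TPM on LFD and 0.573, 2.96, 0.632, 0.513 and 0.521 TPM on HFD, with a log2 fold change of -0.44 ± 0.61 that changed sign without knockout LFD 9. Krt77, called in neither genotype, averaged 1.48 TPM ± 1.22 in control LFD and 0.176 ± 0.187 in control HFD (exact permutation p = 0.0476).

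Krt15 and Krt23 came near the threshold. Krt15 had a log2 fold change of -2.22 ± 0.74 between diets in controls (adjusted p = 0.11 by edgeR, 0.021 by DESeq2, exact permutation p = 0.0159) and of -0.37 ± 0.39 in knockouts (adjusted p = 0.67). Krt23, a type I keratin of glandular epithelia, measured 2.36, 1.61, 0.739, 1.56 and 1.98 TPM in control LFD and 1.09, 0.536, 1.28, 0.714 and 1.23 TPM in control HFD, a log2 fold change of -0.99 ± 0.35 (adjusted p = 0.13 by edgeR, 0.063 by DESeq2). In knockouts it measured 1.61, 4.02, 1.59, 3.75 and 1.47 TPM on LFD and 1.73, 1.22, 0.708, 1.11 and 0.986 TPM on HFD, with -1.21 ± 0.42 (adjusted p = 0.12 by edgeR, 0.036 by DESeq2). Both keratins were lower in mean on HFD in both genotypes. The summed muscle fibre genes were at 3408 TPM in control LFD 5 and at 8.42 to 229 TPM in the other control LFD libraries. Of these 10 genes 8 were called lower in control HFD, where 9.32% of all genes were called in either direction. The part of these muscle genes in the Krt15 and Krt23 values was not tested. Of the root sheath keratins, Krt71 was at 0.0373 to 1.27 TPM in control LFD and 0 to 0.0695 TPM in control HFD, and Krt25 at 0.0245 to 0.589 and 0 to 0.0663 TPM (exact permutation p = 0.0317 for each).

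The abundant simple and basal keratins did not pass the test between diets in either genotype. In controls the log2 fold changes were -0.37 ± 0.42 for Krt8, -0.18 ± 0.32 for Krt18, -0.27 ± 0.35 for Krt19, 0.06 ± 0.35 for Krt7, -0.36 ± 0.27 for Krt14 and -0.38 ± 0.30 for Krt5. In knockouts those of the same 6 genes lay between -0.26 (Krt5) and 0.12 (Krt7).

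Some other epithelial genes fell on HFD in controls, where 9.32% of all genes were called in either direction. Of 14 epithelial genes tested 3 were called, all lower, namely Epcam (log2 fold change -0.70, adjusted p = 0.065 by edgeR), Ehf (-1.19, 0.00604) and Grhl2 (-0.83, 0.092), the last 2 being transcription factors of epithelial cells. Of 11 mammary luminal genes 2 were called, also lower, Elf5, a regulator of the secretory lineage (-1.19, 0.040), and the casein gene Csn1s1 (-6.97, 0.074). The Csn1s1 difference rests on control LFD 5, at 5.77 TPM. Csn1s1 was at most 0.305 TPM in the rest of that group and at most 0.0431 TPM in control HFD. Of 16 desmosome and hemidesmosome genes, which anchor keratin filaments, Itgb4 (-0.70, 0.062) and Dsg2 (-0.87, 0.021) were called lower, a share near that of all genes. In knockouts 0 of 14 epithelial and 0 of 10 mammary luminal genes were called, against 9.4% of all genes called in either direction. Of the 16 anchoring genes Itgb4 and Plec were called lower, again a share near that of all genes. Log2 fold changes in knockouts were negative for 11 of the 14 epithelial and 7 of the 10 luminal genes. By edgeR 3 of the 14 epithelial genes had an unadjusted p under 0.05, against 19.8% of all genes tested. For the genotype effect on HFD minus that on LFD it was 0 of 14, against 3.6%. Of other intermediate filament genes, 8 were tested in controls and 9 in knockouts. Among these Vim and Nes, found in mesenchymal and vascular cells, were called higher on HFD in both genotypes, against 9.32% and 9.4% of all genes.

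The genotype effect on HFD minus that on LFD was tested over all 20 libraries. None of 30 keratins was called by edgeR, as for 0% of all genes tested, and 560 genes (3.6%) had an unadjusted p under 0.05 while DESeq2 called 17 genes (0.109%) and 0 keratins. Krt15 was the single keratin with an unadjusted p under 0.05, with a difference of 1.83 ± 0.85 on the log2 scale (adjusted p = 0.9999 by edgeR).

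Across the 20 libraries, 8 pairs of genes were correlated on log2(TPM + 1), with permutation p-values from 100000 resamples, adjusted over the 8. The partners Krt8 and Krt18 gave Pearson r = 0.84 (p = 1e-05, the smallest the resamples can give, adjusted 8e-05) and Spearman rho = 0.88 (p = 1e-05). Without the 2 libraries farthest from the median of Krt8, r was 0.78, and on deviations from the group means 0.85. Krt7 and Krt19 gave r = 0.63 (permutation p = 0.00237, adjusted 0.00474) and rho = 0.59 (p = 0.00716). Without the 2 farthest libraries r was 0.57 (permutation p = 0.0153, adjusted 0.0612).

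For the basal partners r was lower, a difference that was not tested. Krt5 and Krt14 gave r = 0.55 (permutation p = 0.013, adjusted 0.0208) and rho = 0.47 (p = 0.0379), with r = 0.40 (p = 0.0954) without control HFD 15 and knockout HFD 18 and r = 0.45 (p = 0.0439) on deviations from the group means. Krt14 and Trp63 gave r = 0.64 (permutation p = 0.0022, adjusted 0.00474) and rho = 0.67 (p = 0.00202), with r = 0.43 (p = 0.0741) without control HFD 15 and knockout LFD 7. Krt14 and Krt15 gave r = 0.35 (p = 0.129) and rho = 0.41 (p = 0.0716).

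Across the compartments Krt8 and Krt5 gave r = 0.20 (permutation p = 0.404) and rho = 0.03 (p = 0.891). Krt8 and Epcam gave r = 0.50 (p = 0.0291, adjusted 0.0389) and rho = 0.32 (p = 0.168), with r = 0.24 (p = 0.335) without control HFD 13 and 15 and r = 0.63 (p = 0.00337) on deviations from the group means. Krt1 and Krt10 gave r = 0.79 (permutation p = 0.0005, adjusted 0.002) and rho = 0.60 (p = 0.00644), with r = 0.57 (p = 0.0246) without control LFD 1 and knockout HFD 18. Krt1 was near the floor, at 0 in 9 of the 20 libraries and at most 0.806 TPM.

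**Figure D4:**
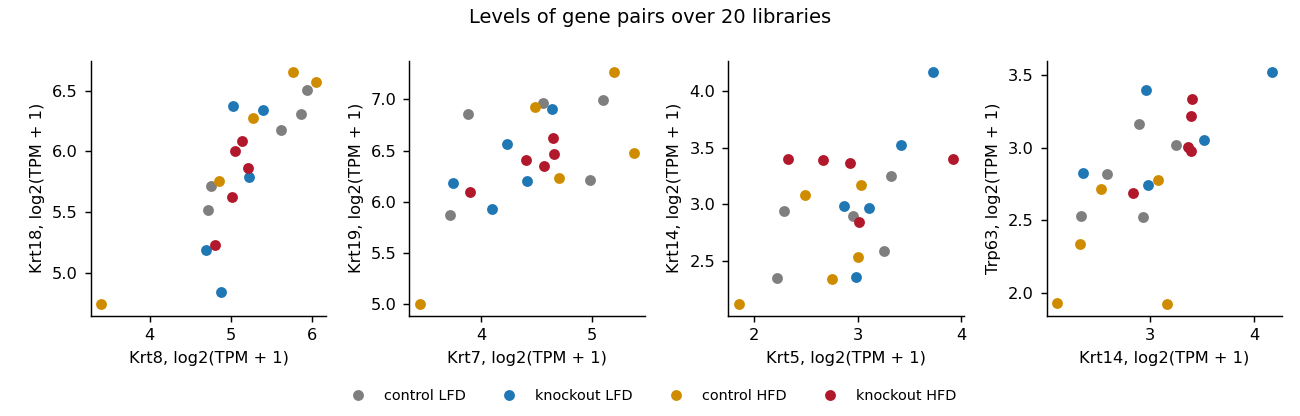
Levels of 4 gene pairs as log2(TPM + 1) in each of the 20 libraries (points, coloured by group). Over the 20 libraries together Krt8 and Krt18 rise with each other (r = 0.84), while Krt5 and Krt14 scatter more (r = 0.55).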

How the data were processed

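RNA-seq was run on 20 iWAT libraries (5 per group). According to the study's methods and the labels, the authors used ribosome-depleted stranded libraries, aligned reads with STAR 2.5.3, kept unique proper pairs and quantified Ensembl NCBIM37 transcripts with Salmon 0.13.1. The deposited table gives TPM and estimated counts per transcript and library. Of 96533 transcripts, 94334 (97.7%) matched the annotation; the rest held 0.377% to 0.581% of the counts and were left out.

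Both measures were summed per gene. Estimated counts were rounded, genes whose TPM averaged 0.5 or more across the 2 groups were kept, and pairs of groups were tested with edgeR 4.0.16 (TMM, quasi-likelihood, no covariate), adjusted by Benjamini-Hochberg over all genes tested and called under 0.1, the limit of the study's methods. SE is the fold change over the root of F. On data simulated for the HFD genotype comparison (15228 genes, 200 changed 4-fold), edgeR recovered 77.5% of the changed genes with 7 other genes called. DESeq2 recovered 81% of them with 59 other genes called. The changed genes were drawn from those above a minimum mean count. Single keratins had an exact two-sided permutation test of log2(TPM + 1). DESeq2 1.42.0 and limma 3.58.1 were alternatives, with other scalings, filters, length offsets and libraries left out. Within groups, replicates correlated at r = 0.87 to 0.97 over genes, and none were identical.

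The members, classes and marker lists were chosen with earlier results of these data known. Named were keratins of at least 0.5 TPM on average, those called, the most abundant of each class and the lowest p per comparison, with Epcam, Trp63 and Tmem120a outside the family. Between-animal spread and counting error set the precision; the p-values refer to these mice.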

Additional observations from a re-analysis of the deposited data

Results flagged for a closer look

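Within each group of 5, libraries were looked for whose gap to the nearest other library exceeded 0.71 of the group's range (Dixon's limit), over 8 class sums and 16 single keratins, 96 groups in all. Chance marks about 1 in 20 groups, and 20 were marked, 6 of them for knockout LFD 7 and 8 for knockout HFD 18.

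Knockout LFD 7 was high for the inner root sheath sum (214 TPM, others 0.0334 to 0.433), the hair sum (138 TPM, others 0.0158 to 1.06), the outer root sheath and stress sum (28.9 TPM), the sum of the other keratins (25.9 TPM, of which Krt72-ps was 17.4), Krt6a (2.16 TPM) and Krt77 (0.698 TPM). Knockout HFD 18 was high for the inner root sheath sum (91.8 TPM, others 0.0808 to 0.194), the hair sum (30.5 TPM), the outer root sheath and stress sum (19.3 TPM), the epidermal sum (5.69 TPM), the basal sum (26.5 TPM, others 16.3 to 16.8), Krt17 (12.8 TPM), Krt10 (2.96 TPM) and Krt77 (2.05 TPM).

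Control LFD 1 was high for the inner root sheath sum at 2.91 TPM, the other control LFD libraries being at 0.245 to 0.471 TPM. Knockout HFD 21 was high for the mucosal and corneal sum (3.39 TPM), control LFD 3 for Krt6a (1.52 TPM), knockout LFD 9 for Krt10 (2.97 TPM) and control HFD 12 for Krt10 (1.28 TPM). Knockout HFD 19 was low for Krt14 (6.17 TPM against 9.34 to 9.57).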

How the results depend on the processing

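Over 26 single keratin fold changes and 516 alternative values, 472 kept their direction and side of the threshold, 22 lost and 16 gained a call and 6 changed sign. The number of keratins called in knockouts against controls was 0 under all alternatives except DESeq2 on HFD, with or without the filter, which called 1 (Krt15). Between diets in controls, where 2 were called, DESeq2 called 4 (without the filter 8), and fits without 1 library 1 to 2; with length offsets, limma or all 4 groups in 1 fit the count was 2 but Krt15 took the place of Krt10. Between diets in knockouts, where 1 was called, the count was 0 without a filter and with length offsets, 2 with DESeq2 and with all 4 groups in 1 fit, 3 with DESeq2 without the filter, and 0 to 1 without 1 library. Without knockout LFD 7 and knockout HFD 18 together (chosen after seeing the data, as were DESeq2 without the filter and sums of coding transcripts) it was 1, Krt4 in place of Krt79. Log2 fold changes that turned sign were Krt79 in the interaction (-0.0937 with limma at a pseudocount of 1), Krt10 between diets in knockouts (-1.23 to 0.12 over fits without 1 library, positive without knockout LFD 9), Krt8 between genotypes on HFD (-0.458 to 0.0358, positive without control HFD 13) and Krt19 there (-0.380 to 0.0405, positive without control HFD 13, and 0.0104 and 0.0132 with limma at pseudocounts of 1 and 0.1). On TPM with limma, the median of all genes moved by 0.13 to 0.16 between diets in controls, and the genes called split 1640 higher and 363 lower, or 1511 and 371, against 676 and 751; in knockouts the split was 815 and 520, or 700 and 490, against 714 and 762. Exact permutation p-values without 1 library ran over 0.0159 to 0.0952 for Krt15 (knockout against control on LFD), 0.00794 to 0.0952 for Krt77 (HFD against LFD in control), 0.00794 to 0.135 for Krt79 (knockout against control on LFD), 0.0317 to 0.0873 for Krt23 (HFD against LFD in knockout), 0.00794 to 0.167 for Krt71 (HFD against LFD in control) and 0.00794 to 0.0635 for Krt25 (HFD against LFD in control). With a pseudocount of 0.1, p was 0.0556 for Krt15 between genotypes on LFD and 0.0635 for Krt77 between diets in controls, and coding transcripts alone gave 0.159 for the former. Without their most abundant member the simple class averaged 121 TPM (Krt19 left out) and the basal class 8.75 TPM (Krt14 left out). Correlations were called at an adjusted p under 0.05 for Pearson's r, and those that lost that call or changed sign were, on group deviations, Krt5 with Krt14 (r = 0.45) and Krt14 with Krt15 (-0.11), and, without the 2 farthest libraries, Krt5 with Krt14 (0.40), Krt1 with Krt10 (0.57), Krt7 with Krt19 (0.57), Krt8 with Krt5 (-0.13), Krt8 with Epcam (0.24) and Krt14 with Trp63 (0.43). Where an alternative uses fewer libraries its power is lower; other causes were not tested. No paired analysis was made, because the labels give no litter or pairing of samples between groups.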
